A study of Mus musculus with 6 samples.

Results

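The cytosolic ribosomal protein genes encode the proteins of the 60S (large) and 40S (small) subunits of the ribosome that translates mRNAs in the cytosol. Members were the gene symbols made of Rpl or Rps, a number and at most 1 letter, with Rpsa, Rplp0, Rplp1 and Rplp2 added and symbols containing -ps, which mark pseudogene copies, left out. Of 54648 symbols in the deposited table, 83 matched, and Rpl10l, a retrogene copy of Rpl10, was dropped because its count was 0 in all 6 libraries. The 82 members comprised 50 genes of the 60S and 32 of the 40S subunit. GENCODE M21 lists all 82 symbols and calls 3 of them (Rpl32l, Rpl6l and Rps4l) pseudogenes. In all, 78 members, 46 of the 60S and 32 of the 40S subunit, passed the filter on low counts and were tested, and 4 (Rpl32l, Rpl39l, Rpl3l and Rpl6l) did not.

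Peritoneal cells of wild-type (WT) and FOXO3 knockout (FOXO3 KO) mice gave 3 libraries each, the mice being of the C57BL/6 strain, 6 to 8 weeks old, male and female, kept on standard chow. The knockouts were littermates homozygous for the Foxo3 mutation, and no promoter or Cre that would restrict the loss to macrophages is named, so other cells of these mice may have lacked FOXO3 too. All mice received 3% thioglycollate, an irritant that draws maturing macrophages into the abdominal cavity, and the cells were harvested after 4 days without a stated sorting step. Total RNA was sequenced from both ends in 76 bp reads. Libraries held 28083393 to 36424117 estimated counts once rounded. Levels are in CPM, which are counts relative to the library total after scaling by TMM, a method that sets the bulk of genes level between libraries. The question was whether loss of FOXO3 was accompanied by a change in the mRNAs of the ribosome.

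Foxo3, the targeted gene, stood at 117, 107 and 73.1 CPM in WT 1, 2 and 3, and at 4.71 and 4.29 CPM in FOXO3 KO 1 and 3. The library labelled FOXO3 KO 2 held 104 CPM, inside the WT range, so its label and its Foxo3 level disagree. Results over all members and the medians of the lists are given with and without it. Fold changes of single genes other than Foxo3 include it unless libraries are said to be left out. With all 6 libraries the log2 fold change of Foxo3 was −1.40 ± 1.22 (SE, adjusted p = 0.859, edgeR), and without the library labelled FOXO3 KO 2 it was −4.46 ± 0.29 (adjusted p = 0.105). WT 3 also stood apart: its summed B cell markers were 6536 CPM against 385 to 1640 CPM in the other libraries. Results over all members, most lists and some single genes are given without it too. All 12 macrophage markers passed the filter, among them Csf1r, the receptor for macrophage colony-stimulating factor, at 698 to 1099 CPM. Their summed level was between 15109 CPM (WT 3) and 19857 CPM (WT 2). All B cell, T cell and mast cell markers listed passed the filter too, so detection alone does not show how pure the harvest was.

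A ribosome needs its proteins in nearly equal numbers, and cells therefore express these genes together and at high levels. Most mammalian ribosomal protein mRNAs begin with a C and a run of pyrimidines, the terminal oligopyrimidine (TOP) motif, through which the kinase mTOR and the RNA-binding protein LARP1 set how well they are translated. FOXO3 is a forkhead transcription factor that the kinase AKT keeps out of the nucleus, and AKT also activates mTOR. Macrophages that arrive in an inflamed cavity make large amounts of protein, which rests on this machinery.

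The start sites of members that recur in the results are shown here so that the TOP motif can be read next to the values. They are RefSeq start sites on GRCm38.p6 with 30 bases on either side, 5′ to 3′ on the strand of the gene, and capitals mark the TOP run, a C at the start site followed by at least 4 of C or T. Rps27 (chr3:90213619-90213678, minus strand), Rps18 (chr17:33955636-33955695, minus) and Rps6 (chr4:86857338-86857397, minus) carried it. Rps27l (chr9:66946056-66946115, plus), Rpl12 (chr2:32961682-32961741, plus) and Rpl10 (chrX:74270786-74270845, plus) did not at the annotated base.
Rps27: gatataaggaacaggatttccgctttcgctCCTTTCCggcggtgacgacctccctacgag
Rps18: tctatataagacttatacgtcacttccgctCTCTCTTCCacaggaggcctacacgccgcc
Rps6: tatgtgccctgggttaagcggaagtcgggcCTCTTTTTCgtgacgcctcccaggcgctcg
Rps27l: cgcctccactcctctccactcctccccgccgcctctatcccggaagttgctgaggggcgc
Rpl12: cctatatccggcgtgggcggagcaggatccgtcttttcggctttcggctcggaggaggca
Rpl10: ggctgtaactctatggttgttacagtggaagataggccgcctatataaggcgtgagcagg

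A promoter was given for 60 members and for 20501 genes in all. A TOP run at the annotated start was present in 14 of the 60 (23.3%) against 2.87% of all genes. In Rpl12 and Rps27l, a C and a run of pyrimidines begin within a few bases after the annotated start. When the run was allowed to begin within 15 bases of the start, a window chosen after the sequences were seen, 73.3% of the members and 45.3% of all genes held one. The forkhead motif GTAAACA was searched on both strands of the 300-base promoters and was found in 1 of the 60 (1.67%), against 3.7% of all genes. That promoter was Rpl41, where it lies 241 bases before the start, on the opposite strand (chr10:128549383-128549418, minus), with the match in capitals.
Rpl41: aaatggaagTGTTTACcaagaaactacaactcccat

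No ribosomal protein gene passed the test between FOXO3 KO and WT libraries, and the group means differed mainly through WT 3. The members took 2.27%, 2.34% and 3.54% of all counts in WT 1, 2 and 3, and 2.17%, 2.26% and 2.36% in the libraries labelled FOXO3 KO 1, 2 and 3. After scaling, their summed level was 22936, 25035 and 32248 CPM in WT 1, 2 and 3, against 22418, 23152 and 22943 CPM in the FOXO3 KO libraries. WT 3 was thus the highest library, and WT 1 lay within the FOXO3 KO range. The 60S members summed to 13634, 14777 and 18451 CPM in WT and to 13236, 13688 and 13435 CPM in FOXO3 KO, and the 40S members to 9303, 10258 and 13797 CPM and to 9182, 9464 and 9507 CPM. The ratio of 60S to 40S counts was 1.34 in WT 3 and between 1.41 and 1.47 in the other 5 libraries, so the 40S genes made up more of the sum in WT 3 than elsewhere.

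**Figure D1:**
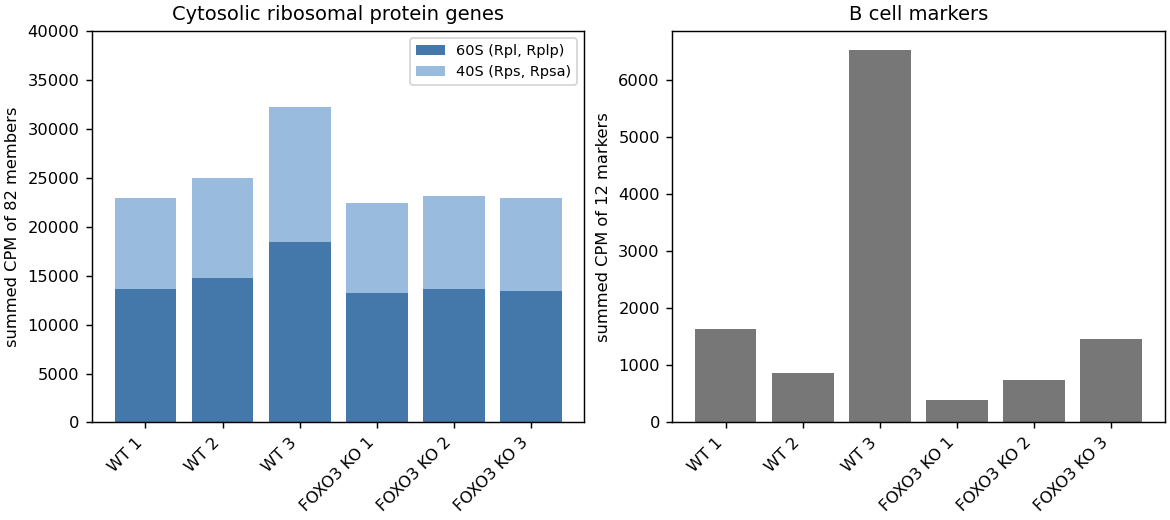
Summed level of the 82 ribosomal protein genes (left, CPM, 60S and 40S members stacked) and of 12 B cell markers (right, CPM) in each of the 6 libraries. WT 3 is the highest library in both panels, at 32248 CPM and 6536 CPM, and the other 5 libraries lie between 22418 and 25035 CPM for the ribosomal protein genes.

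In edgeR's quasi-likelihood test, 0 of 78 members had an adjusted p under 0.05 (smallest 0.839), as had 0% of the 15608 genes tested. At an unadjusted p under 0.05 there were also 0 members, where 1.65% of all genes were lower and 4.04% higher. The signs nevertheless ran one way: 77 of 78 members had a lower mean in FOXO3 KO, beside 51.2% of all genes. Their median log2 fold change was −0.22 (all genes −0.0073), with a range from −0.43 (Rps27) to 0.16 (Rps27l), and the median standard error was 0.157. Medians were −0.22 for the 60S and −0.24 for the 40S members. Without the library labelled FOXO3 KO 2, 76 members were lower (52.4% of all genes), the median was −0.23 and the smallest adjusted p 0.994. Without WT 3, 63 members were lower (49.3% of all genes), the median was −0.054 and the range narrowed to between −0.19 and 0.11, with a smallest adjusted p of 0.677. The median standard error was then 0.0841. Without both libraries, 66 were lower (51.5% of all genes) and the median was −0.076. The likelihood ratio test of edgeR called 0 members at an FDR under 0.05 (0.698% of genes), DESeq2 called 0 (0.829%) and limma-voom 0 (0%).

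**Figure D2:**
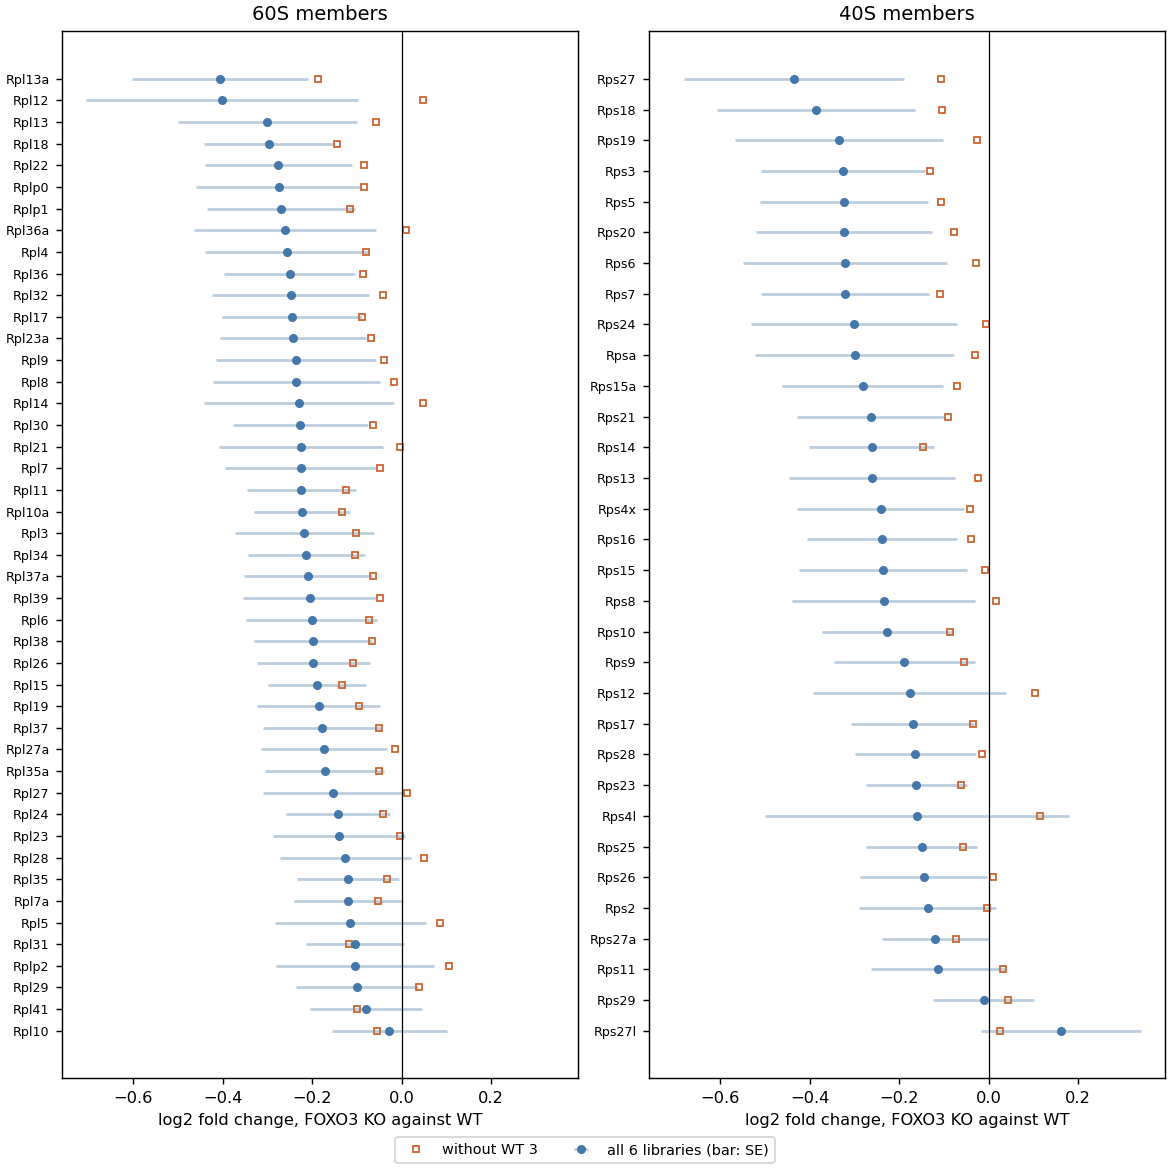
Log2 fold change of each tested 60S member (left) and 40S member (right), FOXO3 KO against WT. Filled circles with bars are the estimate and SE from all 6 libraries, and open squares the estimate without WT 3. With all libraries, only the circle of Rps27l lies right of 0, at 0.16; without WT 3 all squares lie between −0.19 and 0.11. A member that is not reported here is not drawn.

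The expression of single members followed the same course. Rps27, a zinc-binding protein of the 40S subunit, had the lowest fold change. Its level was 258, 289 and 474 CPM in WT 1, 2 and 3, against 236, 257 and 262 CPM in the libraries labelled FOXO3 KO 1, 2 and 3. WT 3 was far above the rest, WT 1 lay within the FOXO3 KO range and WT 2 above it. The log2 fold change was −0.43 ± 0.25 (SE, adjusted p = 0.843) and −0.11 without WT 3. Rpl13a, a 60S protein that in interferon-treated myeloid cells is also released to block the translation of inflammatory mRNAs, was measured at 493, 556 and 768 CPM in WT and at 430, 464 and 477 CPM in FOXO3 KO, with a log2 fold change of −0.41 ± 0.20 (adjusted p = 0.839). All FOXO3 KO libraries were below all WT libraries for this gene, and its fold change without WT 3, −0.19, was the lowest of all members. Rpl12, at the base of the 60S stalk, was at 22.4, 24.0 and 47.9 CPM in WT and at 22.5, 23.2 and 25.6 CPM in FOXO3 KO. Only WT 3 departed from the others, and the log2 fold change of −0.40 ± 0.30 (adjusted p = 0.852) became 0.048 without it.

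A pair of 40S head proteins completed the low end. Rps18 stood at 346, 366 and 575 CPM in WT and at 312, 328 and 345 CPM in FOXO3 KO, with a log2 fold change of −0.39 ± 0.22 (adjusted p = 0.843) and −0.11 without WT 3. Rps19, the gene most often mutated in Diamond-Blackfan anaemia, was at 264, 290.1 and 468 CPM in WT and at 266, 271 and 273 CPM in FOXO3 KO. Its WT 1 library lay below all FOXO3 KO libraries, and the log2 fold change of −0.34 ± 0.23 (adjusted p = 0.844) was −0.026 without WT 3.

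At the other end, Rps27l, a p53-responsive paralog of Rps27, was the only tested member with a higher mean in FOXO3 KO. It was at 47.2, 63.1 and 39.1 CPM in WT and at 57.4, 55.8 and 53.8 CPM in FOXO3 KO. The groups overlapped and WT 3 was the lowest library, the reverse of Rps27, with a log2 fold change of 0.16 ± 0.18 (adjusted p = 0.875) and 0.026 without WT 3. Rps29, a small zinc-binding 40S protein, lay between 215 and 253 CPM in WT and between 231 and 246 CPM in FOXO3 KO, with a log2 fold change of −0.011 ± 0.11 (adjusted p = 0.985). Rpl10, which joins the 60S subunit late in assembly and is encoded on the X chromosome, was at 372, 402 and 356 CPM in WT and at 364, 407 and 338 CPM in FOXO3 KO (log2 fold change −0.028 ± 0.13, adjusted p = 0.969). Rpl41, the shortest ribosomal protein, was at 373, 439 and 379.7 CPM in WT and at 391, 379 and 357 CPM in FOXO3 KO (log2 fold change −0.080 ± 0.13, adjusted p = 0.904). Rpl29 followed with a log2 fold change of −0.10 ± 0.14 (adjusted p = 0.893).

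Members with known roles beyond the bulk of the subunit stood inside this range. In the 60S stalk, which recruits elongation factors, Rplp0 was at 699, 743 and 1006 CPM in WT and at 645, 675 and 705 CPM in FOXO3 KO (log2 fold change −0.27 ± 0.19, adjusted p = 0.844). Its partners Rplp1 and Rplp2 had log2 fold changes of −0.27 ± 0.16 and −0.10 ± 0.18. Without WT 3, the log2 fold change of Rplp2 was 0.11, and those of Rplp0 and Rplp1 were −0.085 and −0.12; differences between these genes were not tested. Rpl5 and Rpl11, which carry the 5S rRNA into the ribosome and bind MDM2 when assembly stalls, were also measured. Rpl5 was at 35.4, 29.8 and 46.4 CPM in WT and at 33.6, 35.3 and 34.1 CPM in FOXO3 KO, with overlapping groups. Rpl11 was at 253, 277 and 316 CPM in WT and at 242, 244 and 237 CPM in FOXO3 KO, with no overlap. Their log2 fold changes were −0.12 ± 0.17 (adjusted p = 0.900) and −0.22 ± 0.12 (adjusted p = 0.843).

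Rps6, the substrate of S6 kinase downstream of mTOR, was at 311, 352 and 546 CPM in WT and at 308, 324 and 334 CPM in FOXO3 KO. Apart from WT 3 the groups overlapped, and the log2 fold change was −0.32 ± 0.23 (adjusted p = 0.846), or −0.029 without WT 3. Rpsa, also known as the laminin receptor precursor, was at 637, 663 and 1032 CPM in WT and at 605, 640.3 and 650.1 CPM in FOXO3 KO (−0.30 ± 0.22, adjusted p = 0.852). Rps27a, made as a fusion with ubiquitin, varied less: it was at 353, 409.5 and 410.1 CPM in WT and at 364, 363 and 353 CPM in FOXO3 KO (−0.12 ± 0.12, adjusted p = 0.867). Rpl4, a lining of the tunnel through which the new peptide leaves, and Rpl3, near the peptidyl transferase centre, had log2 fold changes of −0.26 ± 0.18 and −0.22 ± 0.15.

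In 16 of 78 members every FOXO3 KO library was below every WT library, beside 5.36% of all genes tested, and in 0 was every FOXO3 KO library above (7% of all genes). Of the 16, 14 were of the 60S subunit, among them Rpl10a, Rpl11, Rpl13a, Rpl15, Rpl18, Rpl32, Rpl4 and Rpl6, and 2, Rps18 and Rps3, of the 40S subunit. Since members share libraries, a library that is high or low for all of them moves the whole count. Without WT 3 the count below was also 16, the same genes, beside 11.9% of all genes, and 2 members, Rpl28 and Rplp2, were above (13.5%). Without the library labelled FOXO3 KO 2 the counts were 29 below (9.23%) and 0 above (11%). Leaving a library out can add genes to such a count but cannot remove any. WT 3 was the highest library for each of the 16, so their unchanged count was not a check on WT 3. The gaps were small: Rpl10a, which had the smallest unadjusted p of all members (0.0810), was at 175, 174 and 204 CPM in WT and at 162, 157 and 154 CPM in FOXO3 KO. Its log2 fold change was −0.22 ± 0.11 (adjusted p = 0.839). Rpl18 was at 266, 284 and 360 CPM in WT and at 239.9, 244 and 257 CPM in FOXO3 KO, with −0.30 ± 0.15 (adjusted p = 0.839). Rpl32 was at 335, 341 and 485 CPM against 319, 331 and 327 CPM, and Rpl6 at 516, 552 and 668 CPM against 510.0, 503 and 497 CPM, so the lowest WT library exceeded the highest FOXO3 KO library by little.

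A few members passed an unadjusted p under 0.05 in other fits, and none passed after adjustment. DESeq2 gave 1 lower member, Rpl10a (unadjusted p 0.0425, adjusted p = 0.561), where 3.86% of genes were lower at that threshold. Without WT 3, DESeq2 gave 1, Rpl13a (log2 fold change −0.20, unadjusted p 0.0447, adjusted p = 0.559), with a background of 2.58%. An Xist term in the edgeR fit, for the split of the libraries which is given with the X-linked members, gave 2, Rpl13a (adjusted p = 0.475) and Rpl18 (adjusted p = 0.476), with a background of 4.85%. Without WT 1, 2 were lower, Rpl13a and Rps21 (both with an adjusted p of 0.773), with a background of 1.51%, and without WT 2 Rps27l was higher (log2 fold change 0.37, adjusted p = 0.524), with a background of 3.63%. Rps21, a 40S protein, lay between 119 and 183 CPM in WT and between 121 and 128 CPM in FOXO3 KO, with a log2 fold change of −0.26 ± 0.17 over all libraries (adjusted p = 0.843).

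**Figure D3:**
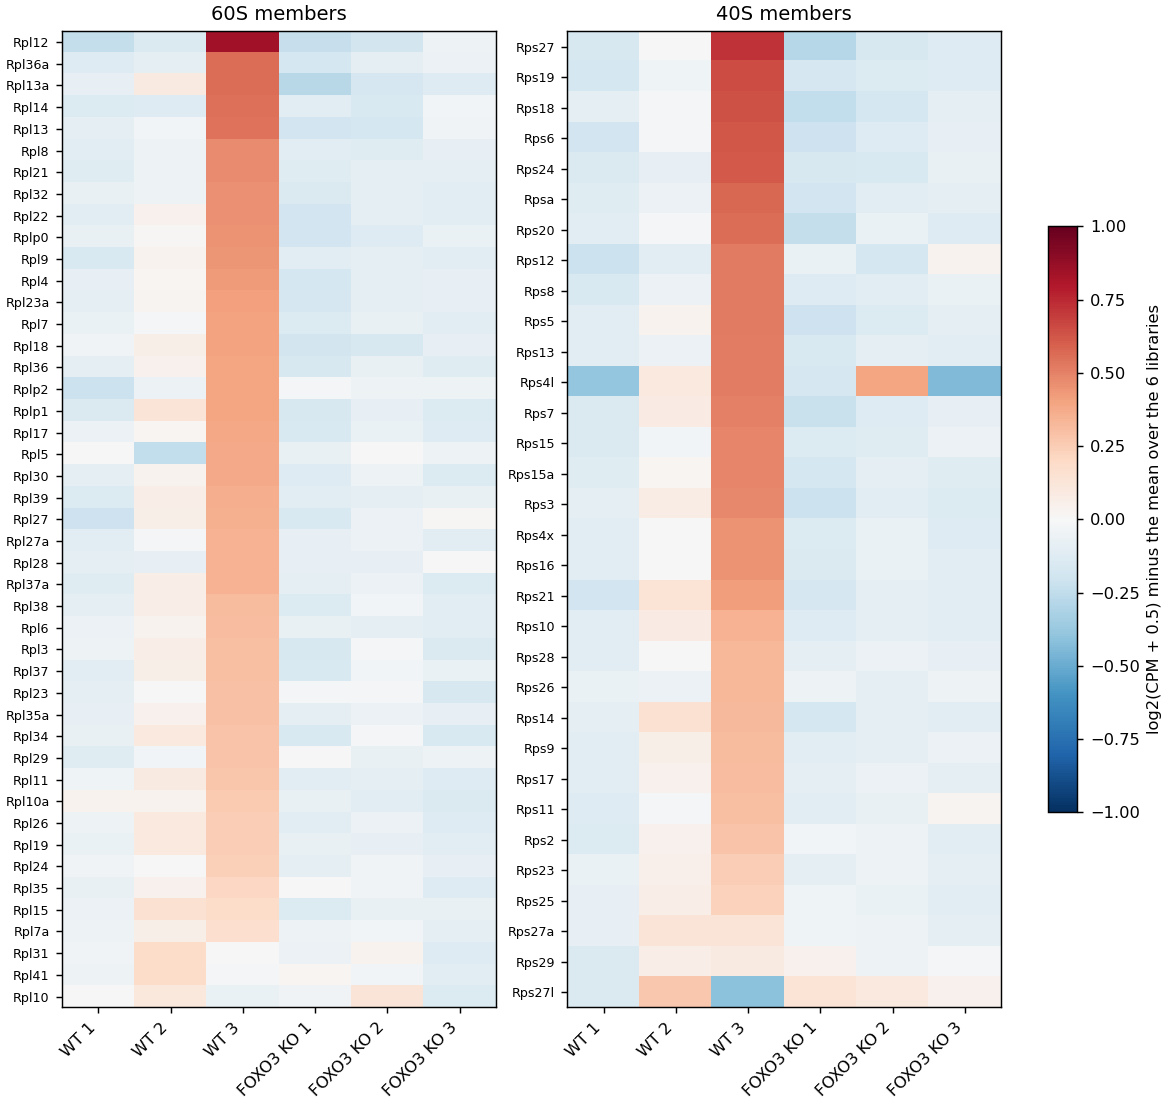
Level of each tested member in each library as log2(CPM + 0.5) minus the mean of that gene over the 6 libraries, for members of the 60S (left) and of the 40S subunit (right), ordered by the value in WT 3. The WT 3 column is the highest for all but Rpl10, Rpl31, Rpl41 and Rps27l, and Rps27l is the only member lowest there; a member that is not reported here is not drawn.

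WT 3 was the highest library for 74 of 78 members, where it was the highest for 37.2% of all genes tested. The exceptions were Rpl10, Rpl31, Rpl41 and Rps27l. Relative to the mean of WT 1 and WT 2, the level in WT 3 was 1.33 times as high at the median (1.01 for all genes), with a range from 0.709 (Rps27l) to 2.06 (Rpl12). The median was 1.32 for the 60S and 1.42 for the 40S members. The ratio exceeded 1.5 in 15 of 78 members, a somewhat smaller share than the 22.3% of all genes. Rps27 (1.74), Rps19 (1.69), Rps24 (1.65), Rps6 (1.65), Rps18 (1.62) and Rps12 (1.62) were the highest after Rpl12, all of them 40S genes. The next, close behind, was the 60S gene Rpl14 (1.61). Rpl10 (0.920), Rpl41 (0.936) and Rpl31 (0.952) were below the mean of the other WT libraries, though only Rpl10 was below both of them, and Rps27a (1.08) and Rps29 (1.09) just above. The 13 tested members with a TOP run at the annotated start had a median ratio of 1.36, and the 44 with a promoter and no such run 1.32.

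Among the other 5 libraries the members were even. Their coefficient of variation had a median of 5.22%, against 11.9% for all genes tested. It ranged from 1.31% (Rps26) to 27.01% (Rps4l, the tested member with the fewest counts). All genes tested include genes with far fewer counts than most members, and counting noise adds more to the coefficient at low counts. Genes of a similar level were not compared. The median deviation of the members from their own mean over 6 libraries was −0.10, 0.035 and 0.38 on the log2 scale in WT 1, 2 and 3 and −0.13, −0.083 and −0.10 in the libraries labelled FOXO3 KO 1, 2 and 3. WT 2 therefore lay above the FOXO3 KO libraries and WT 1 among them. The library labelled FOXO3 KO 2, despite its Foxo3 level, differed little here from FOXO3 KO 1 and 3.

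Markers of other cells moved with the WT 3 level. All 12 B cell markers were highest in WT 3. Cd22, an inhibitory receptor of B cells, was at 150.5, 104 and 464 CPM in WT and at 71.4, 86.3 and 123 CPM in the libraries labelled FOXO3 KO. The list summed to 1640, 864 and 6536 CPM in WT and to 385, 751 and 1469 CPM in FOXO3 KO. Each of the 12 had a lower mean in FOXO3 KO (median log2 fold change −1.96, or −0.49 without WT 3), with 0 at an adjusted p under 0.05. T cell markers summed to 36.9 to 147 CPM in WT and 25.6 to 58.3 CPM in FOXO3 KO (10 of 10 lower, median −0.92, or 0.21 without WT 3). Mast cell markers summed to 131 to 831 CPM and 107 to 305 CPM (8 of 8 lower, −0.80, or 0.17 without WT 3). Both lists were highest in WT 3 for every gene, and no marker of the 3 lists was at 0 in all WT libraries. Macrophage markers were lowest in WT 3 by their sum, of which Lyz2 (7746 CPM in WT 3) was the largest share, although 4 of the 12 were highest there. In FOXO3 KO 10 of 12 were higher at a median of 0.13, or 0.042 without WT 3. The part of these cells in the level of the ribosomal protein genes was not tested, and in RNA from a mixed harvest a smaller share of a cell type cannot be told apart from less RNA per cell.

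Other marker lists had a higher mean in FOXO3 KO. Neutrophil markers summed to 217, 225 and 137 CPM in WT and to 503, 231 and 426 CPM in FOXO3 KO, with WT 3 the lowest library and the library labelled FOXO3 KO 2 close to WT 2 (8 of 8 tested higher, median 0.63, or 0.32 without WT 3). Red blood cell markers summed to 9.63 to 26.95 CPM in WT, and to 117 and 182 CPM in FOXO3 KO 1 and 3, while the library labelled FOXO3 KO 2, at 9.23 CPM, was below every WT library (5 of 5 tested higher, median 2.40). They were followed by mesothelial and fibroblast markers, at 44.7 to 80.4 CPM in WT and 102 to 517 CPM in FOXO3 KO, with the library labelled FOXO3 KO 2 the highest (9 of 9 tested higher, median 2.17, or 1.37 without that library). Cell cycle genes, whose products go with growth and ribosome production, summed to 456 to 497 CPM in WT and 525 to 552 CPM in FOXO3 KO. Of these 18 genes 14 were higher, 7 of them at an unadjusted p under 0.05 (background 4.04%), and 0 at an adjusted p under 0.05. Cdk1, the kinase of mitosis, was at 5.43, 5.12 and 4.61 CPM in WT and at 8.79, 11.5 and 10.1 CPM in FOXO3 KO (log2 fold change 1.004 ± 0.18, adjusted p = 0.714). The direction of most cell cycle genes was the opposite of that of the ribosomal protein genes, and the part of any of these lists in the level of the latter was not tested. Without the library labelled FOXO3 KO 2, medians were −1.92 for B cell, −0.84 for T cell, −0.46 for mast cell and 0.075 for macrophage markers. They were then 0.83 for neutrophil and 2.94 for red blood cell markers, and 0.40 for cell cycle genes.

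The libraries also split by Xist, the RNA of the inactive X chromosome, given here in CPM without the TMM scaling. Xist was at 955 CPM or more in WT 3 and FOXO3 KO 3 and at 0.172 CPM or less in the other 4. Between the Xist-low libraries (WT 1 and 2 against those labelled FOXO3 KO 1 and 2), 68 members were lower with a median log2 ratio of −0.061 (all genes −0.0091). This includes the library labelled FOXO3 KO 2, whose Foxo3 level is in the WT range. Between the Xist-high libraries, WT 3 and FOXO3 KO 3, 77 were lower with a median of −0.48 (all genes 0.0062), but this compares 1 library with 1. The share of all genes that were lower was not taken for either split. With the Xist split as a term in the fit the median was −0.21. Rpl10 was lowest in the Xist-high library of each group, while the other X-linked members Rpl36a, Rpl39 and Rps4x were highest in WT 3. Rps4x, for example, was at 600, 647 and 886 CPM in WT and at 591, 620 and 593 CPM in FOXO3 KO (−0.24 ± 0.19, adjusted p = 0.854).

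Signs of RNA quality and of counting were also examined. Mitochondrially encoded genes took 1.32% of counts in WT 3 and 1.004% to 1.14% elsewhere, and the 10 largest genes 4.90% in WT 3 and 5.87% to 7.50% elsewhere. Ribosomal protein mRNAs are short, and all tested genes were classed by their longest principal transcript. The 635 genes of at most 600 bases had a median log2 fold change of −0.20 (−0.086 without WT 3) and a WT 3 ratio of 1.25. The longer classes had medians between −0.012 and 0.020 and WT 3 ratios between 0.92 and 1.05. The short class itself held members, such as Rps27 (345 bases). With 78 members tested in all, most of its 635 genes were not members. Many other members, such as Rpl13a (1047 bases), Rpl12 (1242) and Rpsa (1938), fell in the longer classes. The part of transcript length was not tested. Symbols of ribosomal pseudogenes (298 in the table) took 7.82% to 8.54% of the counts on members and pseudogenes together, with the lowest share in WT 3. Reads that fit both a member and its copies depend on how the counting shared them.

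Per kilobase of the shortest principal transcript, the mean level of the 77 tested protein-coding members had a median of 451 CPM per kb. Rpl41 (884 CPM per kb), Rps9 (860.1), Rps27 (858), Rplp1 (833) and Rpl19 (737) were the highest, and 4 of these 5 were also among the highest 5 with the longest principal transcript. The ranges over libraries of neighbours among these 5 overlapped. Rpl5 (17.5 CPM per kb), Rpl12 (22.2) and Rps12 (49.5) were the lowest coding members, although a ribosome holds their products in about the same number as the others. For members with many copies in the genome, a low level per length is uncertain for the reason given above. These low members also included the one with the highest ratio in WT 3 (Rpl12).

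**Figure D4:**
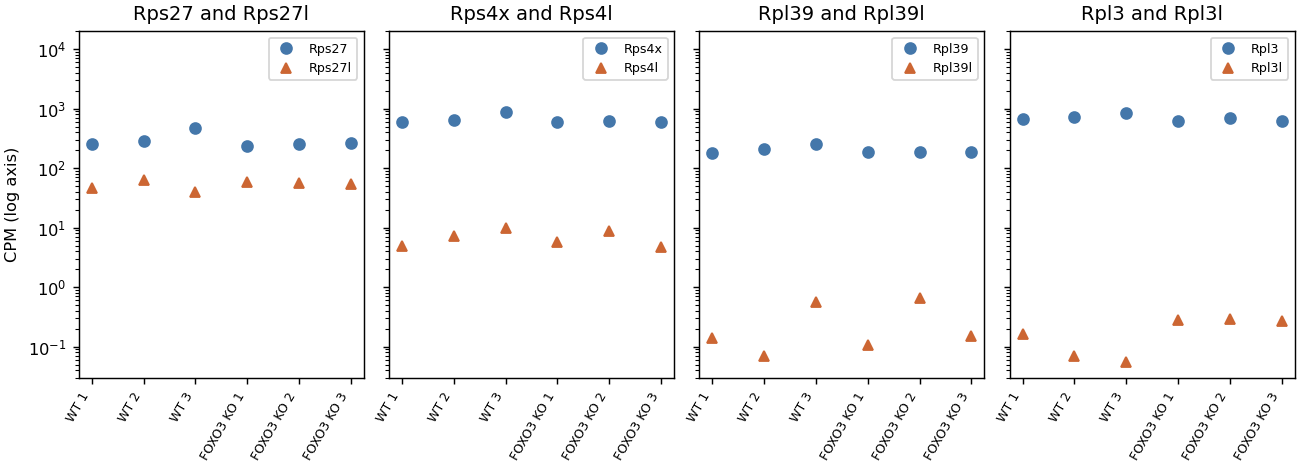
Level (CPM, log axis) in each library of 4 ribosomal protein genes (circles) and their paralogs or copies ending in l (triangles). The paralogs lie below their partners in every library, by the least for Rps27 and Rps27l and by over 100 times for the Rpl39 and Rpl3 pairs.

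The symbols that end in l are copies of core members, some with restricted expression. Rps27l was the most abundant at 39.1 to 63.1 CPM. Rps4l, called a pseudogene by the annotation, was at 4.96, 7.13 and 9.67 CPM in WT and at 5.85, 8.87 and 4.77 CPM in FOXO3 KO (−0.16 ± 0.34, adjusted p = 0.922). Rpl3l, which replaces Rpl3 in striated muscle, had 6, 2 and 2 counts in WT and 8, 8 and 9 counts in FOXO3 KO. It was below the filter; with no filter its fold change had an unadjusted p of 0.0335 (adjusted p = 0.771), where 3.02% of genes were higher at that threshold. Rpl39l, abundant in testis, had 5, 2 and 20 counts in WT and 3, 18 and 5 counts in FOXO3 KO, so 1 library of each group held most of them. Rpl6l had 2 to 8 counts and Rpl32l 0 or 1 count in a library. Their parents Rpl3 (619 to 851 CPM), Rpl39 (181 to 257 CPM), Rpl6 (497 to 668 CPM) and Rpl32 (319 to 485 CPM) were all highest in WT 3.

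Genes that work with the ribosomal proteins were examined as lists. Ribosomal protein genes that the naming rule missed, such as Fau, Rps3a1 and the 40S-bound scaffold Rack1, had 6 of 7 members lower with a median log2 fold change of −0.18 (−0.032 without WT 3), and 6 were highest in WT 3. Rps3a1, a 40S protein, was at 597, 646 and 903 CPM in WT and at 587, 614 and 609 CPM in FOXO3 KO (−0.25 ± 0.19, adjusted p = 0.854). Translation factors and other genes with TOP mRNAs had 24 of 27 lower with a median of −0.15 (−0.033 without WT 3), and 17 were highest in WT 3. Eef2, the elongation factor that moves the ribosome along the mRNA, was at 1696, 1816 and 1898 CPM in WT and at 1497, 1561 and 1507 CPM in FOXO3 KO (−0.25 ± 0.17, adjusted p = 0.844, and −0.20 without WT 3). Eif4b, which helps unwind mRNA leaders, was at 454, 482 and 477 CPM against 404, 418 and 392 CPM (−0.22 ± 0.11, adjusted p = 0.839, and −0.20 without WT 3). For these 2 genes the groups did not overlap and WT 3 was close to WT 2. Some other genes of this list did not overlap either, and 5.36% of all genes tested were lower in this way. Eef2 was named after its values were seen. Gas5, a host of small nucleolar RNAs with a TOP start, was at 84.6, 72.2 and 185 CPM in WT and at 68.4, 75.2 and 82.5 CPM in FOXO3 KO, with WT 3 far above the rest.

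Ribosome biogenesis genes, which make and process rRNA, had 32 of 40 lower with a median of −0.088, and 34 were highest in WT 3. Without WT 3 the median was 0.13, on the other side of 0. Dkc1, the pseudouridine synthase of box H/ACA particles, was at 14.7, 15.3 and 53.1 CPM in WT and at 14.7, 16.7 and 21.6 CPM in FOXO3 KO, with WT 3 far above the other libraries. Named after its values were seen, it had the lowest log2 fold change of the list (−0.65 ± 0.53, adjusted p = 0.856). It does not stand for the list, in which 8 of 40 genes were higher in FOXO3 KO. Genes of the mTOR and MYC control of ribosome synthesis had 14 of 24 lower with a median of −0.037, and 7 were highest in WT 3. In this list 3 genes had an unadjusted p under 0.05 (background 1.65% lower and 4.04% higher) and 0 passed after adjustment. Mxd1, an antagonist of MYC, was at 29.0, 29.96 and 23.4 CPM in WT and at 45.9, 35.8 and 40.5 CPM in FOXO3 KO (0.57 ± 0.14, adjusted p = 0.714). Maf1, a repressor of RNA polymerase III, was at 90.0, 97.8 and 94.2 CPM against 69.7, 85.0 and 65.5 CPM (−0.36 ± 0.12, adjusted p = 0.812), and Sesn1, a FOXO-induced inhibitor of mTORC1 signalling, at 127, 119 and 143 CPM against 93.3, 117 and 97.6 CPM (−0.34 ± 0.13, adjusted p = 0.839). In all 3 genes, the library labelled FOXO3 KO 2 was the nearest to WT. Myc itself was at 16.4, 12.6 and 67.7 CPM in WT and at 15.2, 20.4 and 25.9 CPM in FOXO3 KO.

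Mitochondrial ribosomal proteins, which are encoded in the nucleus but build the separate ribosome of mitochondria, did not share the WT 3 level. Of 78 genes 51 were higher in FOXO3 KO, with a median of 0.036 (−0.0046 without WT 3), and 7 were highest in WT 3 (background 37.2%). Their summed level was 1942, 2202 and 1901 CPM in the WT libraries and 2180, 2009 and 1976 CPM in FOXO3 KO. WT 3 was the lowest library for these genes and the highest for the cytosolic ones. Without the library labelled FOXO3 KO 2, the median was 0.039 for the mitochondrial ribosomal proteins and −0.19 for ribosomal protein genes outside the rule. It was then −0.15 for the TOP translation factors, −0.043 for ribosome biogenesis and −0.0094 for the mTOR and MYC list. In none of the lists described here did a gene have an adjusted p under 0.05.

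**Figure D5:**
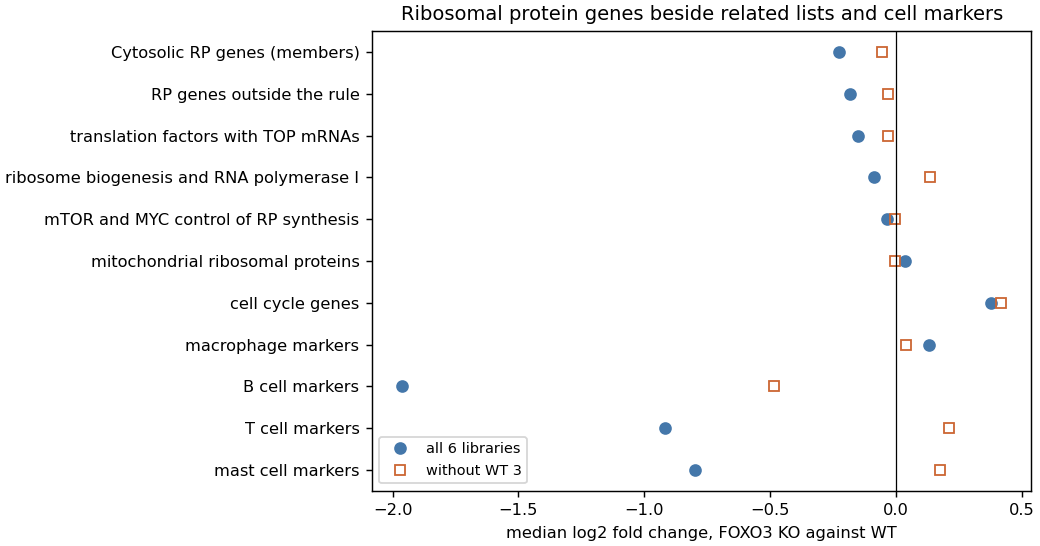
Median log2 fold change, FOXO3 KO against WT, of the tested genes of each list, from all 6 libraries (circles) and without WT 3 (squares). The medians of the ribosomal protein genes (−0.22 and −0.054), ribosome biogenesis genes (−0.088 and 0.13) and B cell markers (−1.96 and −0.49) all lie further right without WT 3.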

How the data were processed

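RNA-seq of 6 libraries (3 WT, 3 FOXO3 KO) was analysed. The authors deposited estimated counts per gene symbol, without normalization. The submitters' processing notes name STAR 2.6.1d, kallisto 0.46.0, DESeq2 and mm10; the step each served is not given in the sources used here. Values were rounded to whole counts (81.4% were already whole to within 0.01). Groups were compared by edgeR 4.0.16 (R 4.3.3; filterByExpr, TMM, quasi-likelihood test, Benjamini-Hochberg over 15608 genes), fitted on the whole table. The common dispersion was 0.103. Standard errors were derived from the log2 fold change and its F statistic. Labels do not say whether libraries of a group came from separate mice, so p-values measure the spread between libraries. Libraries of a group differed beyond counting noise (smallest chi-square per degree of freedom 24.1).

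Alternatives were the likelihood ratio test, DESeq2 1.42.0, limma-voom (limma 3.58.1), other scalings and filters, a replicate block, an Xist term and each library left out. Fits without WT 3 and FOXO3 KO 2 together, and DESeq2 without either, were added with the data in view. The tests were checked on simulated counts, with less spread between libraries and larger changes than the members had here. That check does not show whether changes as small as those of the members would be found. Members, lists and the rule for named genes (highest and lowest fold changes, highest levels, paralogs, known roles, members at an unadjusted p under 0.05, and of each list the genes with the smallest p) were chosen with earlier results of these data known; Csf1r, Gas5, Dkc1, Eef2 and Myc were named for their roles or values after these were seen. Transcript lengths came from GENCODE M21 and sequences from RefSeq (GRCm38.p6). Same-numbered libraries of the 2 groups had correlations of 0.34, −0.06 and 0.57 between their deviations and were not treated as pairs. Some genes of the lists are counted in totals but not reported here by name.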

Additional observations from a re-analysis of the deposited data

How the results depend on the processing

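Under every alternative run, 0 members had an adjusted p under 0.05 and the median log2 fold change of the members stayed below 0, between −0.33 and −0.054 when each library was left out (the latter without WT 3). For 31 of the members named above, other scalings, filters, tools and the Xist term kept the sign, except for Rps29 with no filter (0.0054). With the replicate number as a block the median was −0.21 and 0 members were called; the numbers were not taken to pair the libraries, since the libraries numbered 2 had a correlation of −0.061 between their deviations, although 2 of 3 WT libraries correlated best with their own number. Members lower at an unadjusted p under 0.05 numbered 1 in DESeq2, 1 in DESeq2 without WT 3, 2 with the Xist term and 0 to 2 with a library left out; members higher numbered 1 with no filter and 0 to 1 with a library left out.

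Libraries were also left out, among them WT 3 and the library labelled FOXO3 KO 2 together. Among the same 31 members, log2 fold changes then spanned 0 for Rpl12 (−0.61 to 0.054, and 0.048 without WT 3), Rps29 (−0.087 to 0.055), Rpl29 (−0.19 to 0.045), Rps4l (−0.45 to 0.11), Rplp2 (−0.23 to 0.11), Rpl5 (−0.25 to 0.084), Rps12 (−0.32 to 0.15), Rpl10 (−0.14 to 0.034) and Rpl41 (−0.13 to 0.0020). The signs changed without WT 3 or without both for the first 7 of these, without WT 2 for Rps29, Rpl10 and Rpl41, without FOXO3 KO 2 for Rps29 and without FOXO3 KO 3 for Rpl10 and Rps4l. Members outside the 31 changed sign without WT 3 too, such as Rpl28 (0.049), Rpl36a (0.0098) and Rps26 (0.0097). Of all 78 tested members, 15 were then higher and 63 lower (49.3% of all genes lower). Medians ranged from −0.37 to −0.037 for the 40S members, −0.28 to −0.032 for ribosomal protein genes outside the rule, −0.20 to −0.033 for TOP translation factors, −0.19 to 0.18 for ribosome biogenesis, −2.58 to −0.42 for B cell, −1.36 to 0.28 for T cell, −1.20 to 0.52 for mast cell, −0.017 to 0.20 for macrophage and 1.18 to 2.55 for mesothelial and fibroblast markers. The cause was not tested.

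Every tested member other than Rps4l had at least 583 counts in every library, so the spread between libraries, with 3 a group, set the precision.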
